A study of Mus musculus with 8 samples.

Results

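The 48 genes described here encode proteins of complement and of coagulation and fibrinolysis, and all 48 were found among the 21951 protein-coding genes of the mm10 annotation. They comprised 22 complement genes, 24 coagulation and fibrinolysis genes, and Serping1 and Vtn, which act in both systems. Each gene was given every deposited region that overlapped its body or lay within 10 kb of it. A lost region is a region called open in control liver that overlapped no region called in Alb-D2KO liver, and 8031 of these were deposited beside 250 regions called only in Alb-D2KO liver. Of the 8031 lost regions, 63 lay near 1 or more of the 48 genes.

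The regions came from ATAC-seq, in which a transposase cuts accessible DNA, of nuclei from frozen livers of adult C57BL/6 mice (C57BL/6J in the study's methods). There were 4 libraries of control mice, labelled cre, and 4 of Alb-D2KO mice, with 50000 nuclei in each. In Alb-D2KO mice the floxed Dio2 gene, which encodes the type 2 deiodinase that turns thyroxine into the active thyroid hormone T3, is inactivated by a Cre recombinase driven by the albumin promoter, which acts mainly in hepatocytes and leaves other liver cells largely untouched. The authors called the libraries of a genotype together, so each region has 1 value per genotype comparison, without replicate error, and the depth of the libraries is unknown from the lists. A lost region passed the caller's threshold in one genotype and overlapped nothing that passed it in the other, which is not a measured size of decrease. Fewer hepatocyte nuclei and less open chromatin per nucleus cannot be told apart in whole liver. No test was made, because pooled calls leave no animals to compare, and genes and regions are not replicates. The lists themselves were unequal, with 32.1 lost regions for each Alb-D2KO-only region.

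Complement is a cascade of plasma proteases and their substrates that marks microbes and damaged cells and can end in a pore in the target membrane. Coagulation is a second plasma protease cascade, which turns fibrinogen into a fibrin clot, and fibrinolysis removes the clot again. Hepatocytes secrete most of these proteins into the blood, while a few, such as the C1q chains, properdin, adipsin, tissue factor and factor VIII, are made mainly by macrophages, fat or endothelial cells and other cells.

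Of the 48 genes, 30 (62.5%) had a lost region in the body or within 10 kb, beside 25.1% of all protein-coding genes. In other protein-coding genes weighted to the same gene lengths the share was also 25.1%. By group, 12 of 22 complement genes (54.5%) and 16 of 24 coagulation genes (66.7%) had one, beside length-weighted shares of 24.8% and 25.8%. Serping1 and Vtn each had 2 lost regions. The share of coagulation genes was above that of complement genes, but no replicate error is available for either, and 3 of the 16 coagulation genes drop out when genes that share a region are counted once. Regions overlapping the gene body itself were found for 22 members (45.8%), 10 of complement and 11 of coagulation, beside 15.7% of all genes. With 2 or more lost regions there were 20 members (41.7%), beside 9.07% of all genes. For a region with an area of at least 300 the counts were 25 members (52.1%), 8 complement and 15 coagulation genes, beside 12.9% of all genes. The area is the peak caller's summed significance over a region, which grows with both its width and its height, and the smallest area in the lost list was 200. The baseline from which the caller sums is not given in the sources used here. Because 7072 of the 8031 lost regions had an area per base below 1.30, the −log10 of the caller's q threshold, it is not the full height of a −log10 p curve, and areas are compared here only with each other.

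No member had an Alb-D2KO-only region in its body or within 10 kb, beside 1.01% of all protein-coding genes. The nearest one lay 79954 bp from C8g, which encodes the γ chain of complement component 8. At so low a background, 0 of 48 is no result about these genes.

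**Figure D1:**
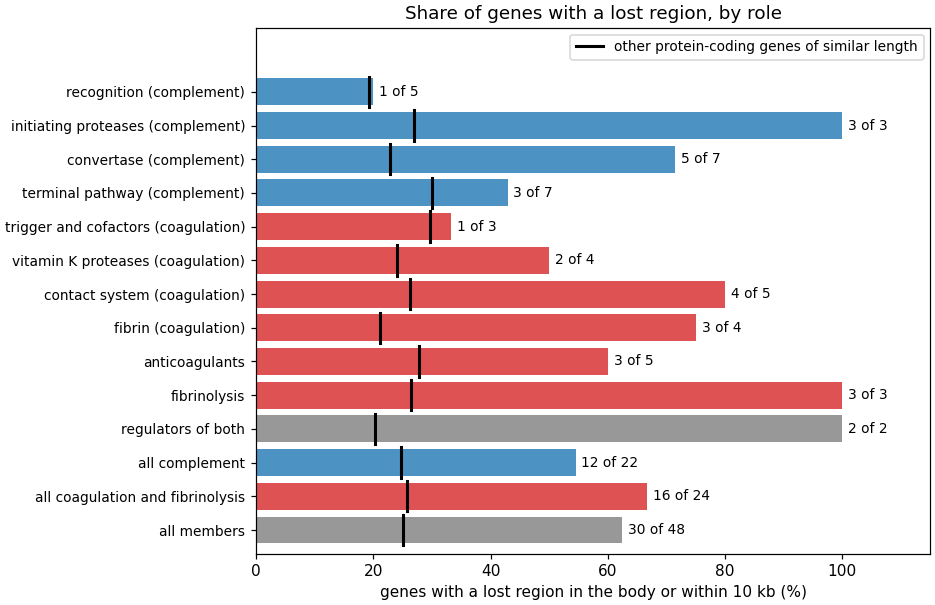
Share of genes with a lost region in the body or within 10 kb, in percent, for each role and for the groups (bars, with the numbers of genes). Black lines mark the share among other protein-coding genes of similar length. The bars for recognition proteins (1 of 5) and for the trigger and cofactors (1 of 3) lie close to their lines, and those for the initiating proteases, fibrinolysis and the regulators of both systems reach 100%.

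Among the recognition proteins of complement, which bind antibody or microbial sugars, 1 of 5 genes had a lost region. That gene was Mbl1, which encodes a mannose-binding lectin, with a single region over its start (summit 39 bp downstream, area 296.7). The second mannose-binding lectin gene, Mbl2, had its nearest lost region 48200 bp away. C1qa, C1qb and C1qc, the chains of C1q, lie side by side within 18.7 kb of chromosome 4 and had none, the nearest being 173897 bp from C1qa.

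All 3 initiating proteases had lost regions. Masp1, which encodes a protease of the lectin pathway, had 4, all in introns, with summits 4823, 9310, 14416 and 56947 bp downstream of the start and areas of 348.9, 242.1, 235.1 and 439.5. The deepest of them in the gene was therefore also the largest. Masp2, which encodes the lectin-pathway protease that cleaves C4 and C2, had 2 small ones, 535 bp upstream of the start (239.1) and 5407 bp downstream in a coding exon (211.0). C1ra, for the C1r protease of the classical pathway, had a region just inside the gene, within 200 bp of its start (331.7). A second one, 4529 bp beyond its end (207.9), lay nearer to the neighbouring gene C1s1.

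Of the 7 genes for convertase components and their regulators, 5 had lost regions. C4b encodes complement component 4, a subunit of the convertase that cleaves C3. Its start region had an area of 476.0 and a width of 738 bp, with the summit 533 bp upstream. A second region of 525.9 at its other end was the largest found near a complement gene, above 95.5% of all lost regions. C4b has a close duplicate beside it, and alignments of low mapping quality had been removed, so regions shared by both copies may be missed. C2, the catalytic subunit of the same convertase, had a region of 330.7 at one of its inner starts, 16133 bp downstream of its outermost start. That inner start is also a start of the readthrough gene Gm20547, and the region overlapped the gene Zbtb12 as well. Another C2 region, of 359.8, lay at the start of the neighbouring gene Ehmt2. C3, the protein on which the pathways converge, had none in its body and 3 upstream, 2249, 2775 and 6342 bp from its start (224.3, 384.0 and 285.0). Cfi, which encodes the protease that inactivates C3b and C4b, had an intronic region 2308 bp from its start (362.8) and a smaller one 3922 bp past its end (229.9). Cfd, which encodes adipsin, had 3 regions outside its body (220.2, 306.4 and 224.2), of which the upstream pair lay nearer to Prtn3. Cfb, the catalytic subunit of the alternative-pathway convertase, had its nearest lost region 19347 bp away, outside the limit of 10 kb, and Cfp, for properdin, had its nearest at 76638 bp.

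In the terminal pathway, whose proteins form the membrane pore, 3 of 7 genes had a lost region, beside a length-weighted 30%. C8b had 1 over its start (451.7, summit 90 bp upstream), C6 had 1 over its start (243.6), and C8a had 1 at its far end, in an untranslated exon 59599 bp from its start (226.8). Hc, which encodes complement component 5, C7, C8g and C9 had none, with the nearest at 42204, 44517, 20010 and 58412 bp. The region over the start of C8b was about as large as the start region of C4b, while those of C6 and C8a were below the median of all lost regions, which was 278.

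Among the trigger and cofactors of coagulation, 1 of 3 genes had lost regions. F5, which encodes the cofactor of activated factor X, had 4, of which 3 were intronic (217.7, 320.3 and 223.5) and 1 began 71 bp beyond the gene (223.1). F3, for tissue factor, had its nearest lost region at 16095 bp, the closest of any member without one. F8, the cofactor made mainly by endothelial cells, had its nearest at 743420 bp and lies on the X chromosome, as do F9 and Cfp. Of the protein-coding genes on X, 5.27% had a lost region, and none of the 3 X-linked members did. Without those 3 the members' share was 66.7%.

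The 4 vitamin K-dependent proteases gave 2 genes and a single region. It lay in the first part of F10, which encodes factor X, 1127 bp downstream of the start in an intron, and it was counted for the neighbouring F7, for factor VII, because it began 2384 bp past the end of that gene. Its area of 522.1 exceeded 95.4% of all lost regions. F2, for prothrombin, had its nearest lost region at 195944 bp and F9, for factor IX, at 2606291 bp.

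Of the contact system, which starts the intrinsic pathway and releases bradykinin, 4 of 5 genes had lost regions. Klkb1, for plasma prekallikrein, had a region over its start (214.5), an intronic one 13003 bp downstream (367.9) and another (249.2) between it and F11, for factor XI. F11 had that shared region 3193 bp upstream of its start and another 1375 bp past its end (327.2), with none in its body. Kng2, which encodes a kininogen, had 1 over an inner start (299.3) and 2 further upstream, 8537 and 9965 bp away (401.7 and 305.1). The last of these, 9792 bp from the gene, was the one nearest to the inside of the 10 kb limit. Kng1, the neighbouring kininogen gene, had a single region at one of its starts (211.3). F12, for factor XII, had its nearest lost region at 23775 bp.

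The 3 fibrinogen genes, whose chains form the clot, lie within 42.1 kb of chromosome 3, and all of them had lost regions. Fga had 1 over its start (253.7), Fgg had 1 upstream at 4424 bp (337.7), and Fgb had 2 upstream (259.5 and 254.5) and 2 just past its end (263.7 and 321.1). The 2 past the end of Fgb were also within 10 kb of Fga. None overlapped the body of Fgb or of Fgg, and the 6 regions of the locus together had an area of 1690.2. F13b, for the carrier subunit of the fibrin cross-linking enzyme, had its nearest lost region at 78921 bp.

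Of the 5 anticoagulant genes, 3 had lost regions. Serpinc1, for antithrombin, had 1 over its start (257.4) and a larger one 2155 bp downstream in an exon (457.3). Proc, for protein C, had 1 over a start (257.4) and 2 upstream, 6012 and 8525 bp away (368.9 and 250.4). Serpind1, for heparin cofactor II, had a single region of 492.8, which lay 1958 bp past its end in an intron of Pi4ka. Pros1, for the cofactor of protein C, and Proz, for protein Z, had none, with the nearest at 2735507 and 22281 bp.

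All 3 fibrinolysis genes had lost regions, and the 2 largest areas of the whole set were among them. Serpinf2, which encodes the main inhibitor of plasmin, had 6, more than any other member. Their areas were 586.0, 299.8, 248.7, 344.0, 451.9 and 667.3 along the chromosome, and 3 of them overlapped the gene, including 2 at its starts. The region of 667.3 lay 4348 bp upstream in an intron of Wdr81, and the regions of 586.0 and 299.8 lay at Serpinf1, the neighbouring serpin gene. So 3 of the 6 had another coding gene nearer to them. Plg, for plasminogen, had 3 intronic regions, 2001, 6978 and 9500 bp downstream of the start (631.1, 283.4 and 216.9). The first of these was above 98.3% of all lost regions. Cpb2, for the carboxypeptidase that slows fibrinolysis, had 1 over its start (346.2). Of the regulators of both systems, Serping1, for the C1 inhibitor, had 2 beyond its end (353.8 and 218.5), and Vtn, for vitronectin, had 1 in a coding exon (485.1) and 1 upstream at the start of Sarm1 (352.7).

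**Figure D2:**
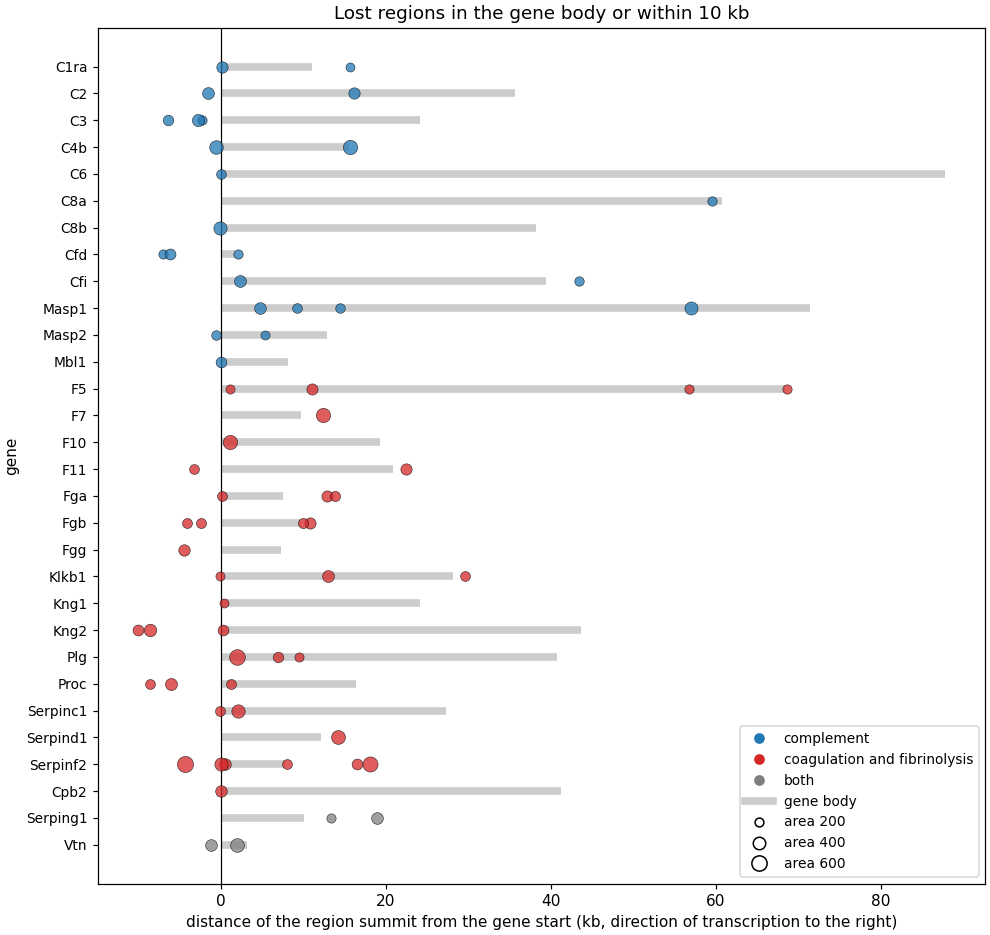
Position of each lost region near the 30 genes that had one, as the distance of its summit from the gene start in kb, with transcription to the right. Circles are regions, with an area of the circle in proportion to the peak caller's area, and grey bars are gene bodies. Regions lie upstream, at the start, in the body and beyond the end, with the largest circles at Serpinf2 and Plg.

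Sequences around the summits are shown for 5 regions, which are some of the 4 largest near a coagulation gene (Serpinf2, Plg, and F7 with F10) and of the 4 largest near a complement gene (C4b and Masp1). All are 121 bases of the forward strand of mm10, centred on the summit, and capitals mark the letters of a motif searched for. The Serpinf2 window is chr11:75443879-75443999, the Plg window chr17:12380549-12380669, the window shared by F7 and F10 chr8:13038375-13038495, the C4b window at its start chr17:34744355-34744475, and the Masp1 window chr16:23463808-23463928.
Serpinf2: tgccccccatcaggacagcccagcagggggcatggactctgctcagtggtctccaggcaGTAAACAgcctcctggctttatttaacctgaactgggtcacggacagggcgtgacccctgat
Plg: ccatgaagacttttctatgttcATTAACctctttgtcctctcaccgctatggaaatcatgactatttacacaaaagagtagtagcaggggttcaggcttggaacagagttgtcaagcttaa
F7 and F10: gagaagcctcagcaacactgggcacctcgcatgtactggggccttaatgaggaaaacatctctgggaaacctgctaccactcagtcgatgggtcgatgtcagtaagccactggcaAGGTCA
C4b: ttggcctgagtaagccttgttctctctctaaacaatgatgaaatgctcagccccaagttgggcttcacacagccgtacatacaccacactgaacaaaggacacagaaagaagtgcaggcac
Masp1: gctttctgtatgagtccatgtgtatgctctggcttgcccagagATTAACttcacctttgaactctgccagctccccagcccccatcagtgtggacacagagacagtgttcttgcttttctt
The Plg and Masp1 windows held the HNF1 letters GTTAAT on the reverse strand, the Serpinf2 window held the FOXA letters TGTTTAC on the reverse strand, and the window of F7 and F10 held the nuclear receptor letters AGGTCA. The C4b window held none of the 8 motifs. The other windows of these largest regions are not shown, and they too held none of the 8 motifs. They were those of the C4b region of 525.9, the C8b region of 451.7 and the Serpinf2 region of 586.0. HNF1 and FOXA are transcription factors of hepatocytes.

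At the gene starts, 14 of the 48 members (29.2%) had a lost region within 200 bp of a start of their own, beside 5.94% of all protein-coding genes. They were C1ra, C2, C4b, C6, C8b and Mbl1 of complement and Fga, Klkb1, Kng1, Kng2, Proc, Serpinc1, Serpinf2 and Cpb2 of coagulation. The median area of the 18 promoter-class regions near the members was 315, beside 304 for all promoter regions of the lost list. Those 18 include regions at the starts of the neighbouring genes Ehmt2, Serpinf1 and Sarm1 (359.8, 299.8 and 352.7). The value of 315 is therefore not a median for the members' own starts. The 100 bases upstream of the RefSeq start (GRCm38.p6) are shown for 5 of these genes, because a lost region covered the whole of each stretch and no untranslated exon overlapped it. They are given on the strand of the gene, which is the reverse strand for Kng2, at chr4:104766217-104766316 for C8b, chr14:41151356-41151455 for Mbl1, chr16:23029102-23029201 for Kng2, chr1:160978483-160978582 for Serpinc1 and chr14:75242187-75242286 for Cpb2.
C8b: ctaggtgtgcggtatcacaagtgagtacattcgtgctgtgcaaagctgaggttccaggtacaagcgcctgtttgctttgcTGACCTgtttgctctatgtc
Mbl1: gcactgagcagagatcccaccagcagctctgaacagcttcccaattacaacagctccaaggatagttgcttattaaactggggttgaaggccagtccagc
Kng2: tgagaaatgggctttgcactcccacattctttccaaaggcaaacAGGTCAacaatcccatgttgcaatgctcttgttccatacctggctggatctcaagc
Serpinc1: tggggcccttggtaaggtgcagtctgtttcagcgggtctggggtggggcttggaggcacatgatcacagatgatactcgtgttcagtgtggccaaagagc
Cpb2: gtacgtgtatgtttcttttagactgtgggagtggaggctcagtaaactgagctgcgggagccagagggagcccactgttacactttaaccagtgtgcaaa
The C8b and Kng2 stretches held the nuclear receptor letters AGGTCA, in opposite orientations, and the other 3 held none of the 8 motifs in these 100 bases.

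By class, 18 of the 63 regions (28.6%, 95% Wilson interval 18.9 to 40.7) were at promoters, within 200 bp of any annotated start, and 6 (9.52%) were in exons, 18 (28.6%) in introns and 21 (33.3%) between genes. Among the 6387 lost regions near any protein-coding gene, the shares were 23% at promoters, 11.9% in exons, 47.0% in introns and 18.1% between genes. The members therefore had fewer intronic and more intergenic regions than these, in shares whose intervals cover counting error only. Complement and coagulation had nearly equal promoter shares, with 7 of 24 and 10 of 35 regions. Intronic regions made up 6 of 24 in complement and 12 of 35 in coagulation, and their Wilson intervals of 12 to 44.9% and 20.8 to 50.8% overlapped.

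Regions lay closer to the starts of these genes than was usual in the list. The median distance of a summit from the outermost start of the gene was 6012 bp over 67 pairs of a member and a region. Over all 9015 pairs of a coding gene and a lost region it was 9728 bp. The count of members with a lost region within 200 bp of a start, given above, used any annotated start of the gene instead. Within 200 bp lay 13.4% of the members' pairs and 6.90% of all pairs, and beyond 10000 bp lay 32.8% and 49.2%. All pairs were taken without weighting for gene length, which limits this distance. The part of gene length in these differences was not tested. The median was 5115 bp in complement and 6978 bp in coagulation. Regions past the end of the gene made up 3 of 24 pairs in complement (12.5%) and 11 of 39 in coagulation (28.2%), beside 21.7% of all pairs. The 39 coagulation pairs hold 35 distinct regions, because some neighbouring genes share a region. Those between Fga and Fgb lie past the end of both genes and so enter the 11 more than once. A member was the nearest protein-coding gene in 51 of the 67 pairs, and in the other 16 another gene was nearer. The like share over all pairs is not given here. F7 and Serpind1 had no region for which they were the nearest gene.

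The areas of the 63 regions ran from 208 to 667, with a median of 299.8 (95% order-statistic interval 257 to 338), and 49.2% reached 300. Over all 8031 lost regions the median was 278, and 40.8% reached 300. The interval of the members' median includes the median of the whole list. The members' regions were wider, with a median of 390.0 bp against 326 bp, and their area per base was 0.869 against 0.909. The higher areas thus went with wider regions, while the area per base was slightly lower. Complement (median 291, range 208 to 526) and coagulation (299.8, range 211 to 667) overlapped almost fully, and the 3 areas above the highest complement value of 525.9 belonged to Serpinf2 and Plg.

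**Figure D3:**
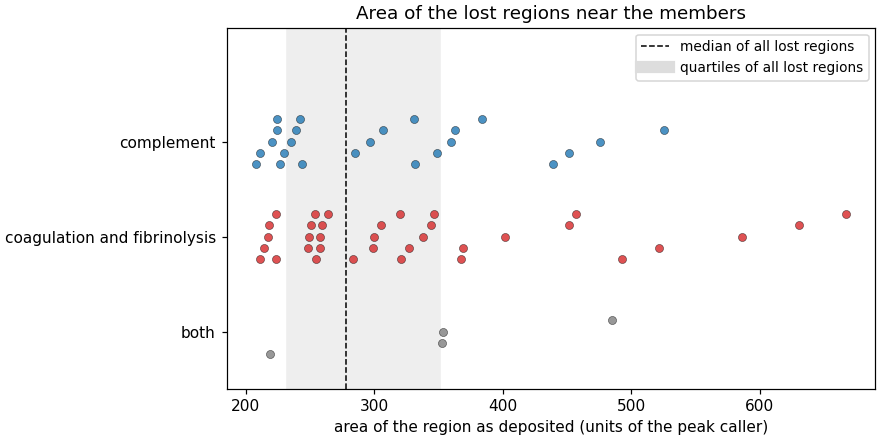
Area of each lost region near the members, in the peak caller's units, by group, with the quartiles (grey band) and median (dashed line) of all 8031 lost regions. Each point is a region counted once per group, and its height within a row carries no value. Most points lie within or just beside the band, and the 3 furthest to the right are 2 regions of Serpinf2 and 1 of Plg.

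The caller numbered the control regions in order along the genome, so a gap in the numbers of neighbouring lost regions was read as control regions that were not lost, here called kept. A region taken out for any other reason would also be counted as kept, and the lists do not tell these apart. This reading of the numbers was chosen after the lists had been seen, and every kept count rests on it. The F11 and Klkb1 locus had 4 lost regions with consecutive numbers, spread over 55623 bp, and no kept region among them. Kng2 and Kng1 had 4 consecutive ones within 29347 bp, Masp1 had 4 within 52384 bp, and Serpinf2 had 6 within 23055 bp. At the fibrinogen locus, 6 of the 7 regions numbered from first to last were lost. In contrast, the locus of C4b, Cfb and C2, counted from its first to its last numbered region, had 5 lost and 5 kept regions. Not all of those 5 lost regions lay within 10 kb of these genes. Consecutive numbers were found for 15 of the 20 members with 2 or more lost regions (75%), 5 of 8 in complement and 9 of 10 in coagulation, beside 56.6% of all genes with 2 or more. F11 with Klkb1, and Fga with Fgb, share such a run, so this count of genes holds some regions more than once.

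For 7 of the 30 genes with a lost region (23.3%), namely C4b, C6, C8a, C8b, F11, Klkb1 and Kng2, no kept control region was numbered between the lost regions flanking the gene, beside 3.72% of all such genes. By this reading, each control region called near those 7 genes was a lost one. C8a lies beside C8b and F11 beside Klkb1, so the 7 genes stand for fewer than 7 loci. Of the 18 members without a lost region, 4 (22.2%), namely C7, C9, Cfp and Mbl2, had no numbered control region at all between the flanking lost regions, beside 4.0% of all genes without one. These 4 genes thus lay where the control call held no region to lose. The other 14 had between 1 and 14 kept regions in that interval, with the highest number at F2.

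**Figure D4:**
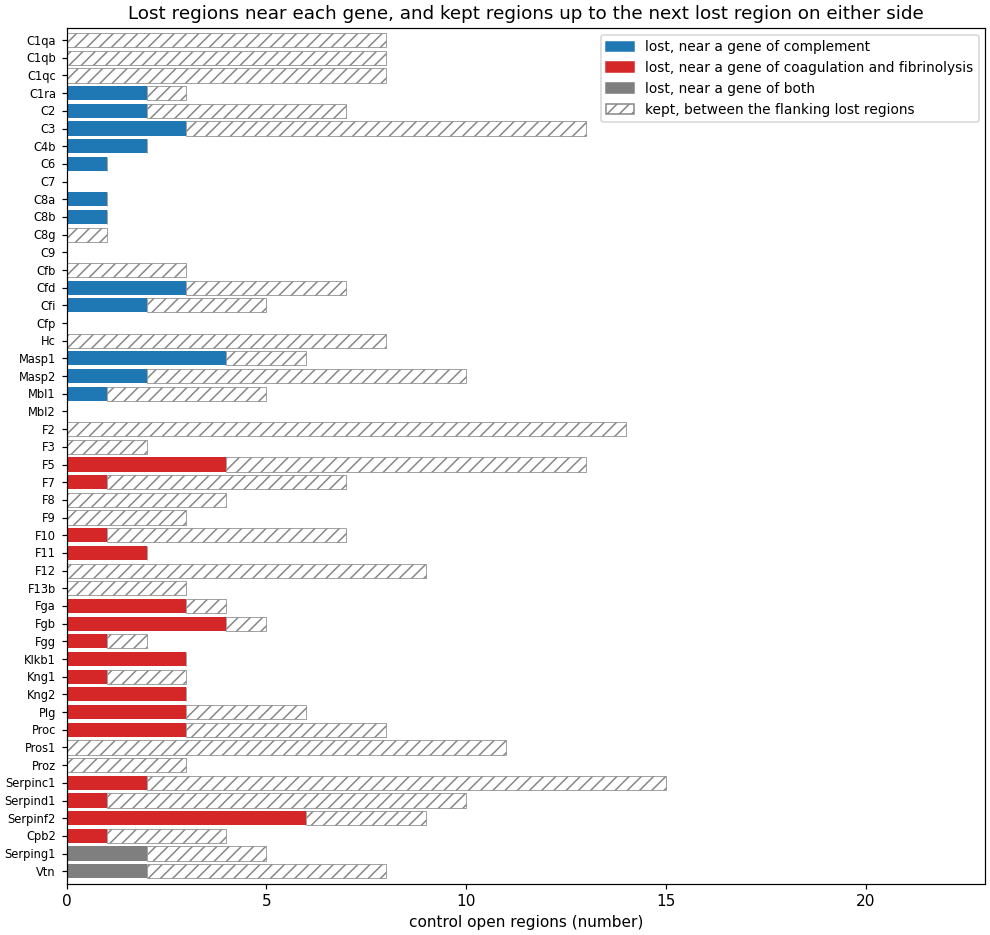
Number of control open regions for each of the 48 genes, as lost regions in the body or within 10 kb (filled) and kept regions between the flanking lost regions (hatched), read from gaps in the caller's region numbers. The hatched part can lie beyond 10 kb and would include regions taken out for another reason. C4b, C6, C8a, C8b, F11, Klkb1 and Kng2 have filled bars only, and C7, C9, Cfp and Mbl2 have no bar.

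Of 7 members made mainly outside hepatocytes (C1qa, C1qb, C1qc, Cfd, Cfp, F3 and F8), 1 had a lost region (14.3%), Cfd, beside a length-weighted 20.6%, and of the other 41 members 29 (70.7%) had one, beside 25.9%. A count of 1 of 7 is near its background. Markers of the liver cell types were read the same way. Lost regions were near 7 of 8 hepatocyte markers (length-weighted background 22.8%), 0 of 7 Kupffer cell markers (25.2%), 0 of 7 stellate cell markers (28.4%), 4 of 7 endothelial markers (29.1%) and 1 of 5 cholangiocyte markers (21.5%). The cholangiocyte share is about its background, and lists of 5 to 8 genes are short. The part of cell composition in the counts was not tested.

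Further genes of the pathways were counted from lists of their own. Of 27 other complement genes, mostly receptors and regulators, 6 (22.2%) had a lost region, namely C1s1, C1rl, C4bp, Clu, Cpn1 and Cpn2, beside a length-weighted 26.2%. Of 26 other coagulation genes, 11 (42.3%) did, beside 25%. Both shares were below those of the members. Among other secreted liver proteins, 13 of 14 apolipoprotein genes (92.9%), 14 of 18 acute phase genes (77.8%) and 7 of 10 carrier protein genes (70.0%) had a lost region. Their length-weighted backgrounds were 18.8%, 22.5% and 24.1%, in the same order. The members' share of 62.5% was thus above the background and not above that of these groups. The groups are not separate from the hepatocyte markers counted earlier, because Alb, Ttr and Apoa1 have a lost region and are on both kinds of list.

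Motif letters were searched on both strands in the 300 bases around each summit. The HNF1 letters GTTAAT were found in 12 of the 63 regions (19.0%) and in 8.80% of the 8021 lost regions on placed chromosomes. The C/EBP letters TTGCNNAA, for a family of factors that act in hepatocyte maturation, were found in 21 (33.3%) and in 18.4%. AGGTCA was found in 25 (39.7%) and in 30%, and the HNF4A letters CAAAGTCCA in 4 (6.35%) and in 2.62%. The SP1 letters GGGCGG were found in 6 (9.52%) and in 17.7%, and the AP-1 letters TGANTCA in 2 (3.17%) and in 9.80%. The FOXA letters were found in 7.94% and 6.66%, and the STAT letters TTCNNNGAA in 11.1% and 10.3%. The members' windows had a median GC content of 48.3%, beside 51.0% for all lost regions, and the part of base composition in these shares was not tested.

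In the RefSeq promoters, from 250 bases before to 50 after the start, 38 of the 48 members were matched by symbol with 39 sequences. HNF1 letters were found in 12 of the 39 (30.8%) and in 7.10% of all 32851 promoters, at C1ra, C7, C8a, C8b, Cfp, F13b, F2, Fga, Fgb, Hc, Proz and Vtn. Of the 10 matched members with a lost region at their own start, 3 held them (C1ra, C8b and Fga). C/EBP letters were found in 11 (28.2%) and in 10.8%, with 6 of those 10 members among them (C1ra, Cpb2, Fga, Klkb1, Kng2 and Serpinc1). SP1 letters were found in 12.8% and in 35.7%, and AGGTCA in 41.0% and 16.3%. STAT letters were found in 23.1% and 8.30%, AP-1 letters in 10.3% and 7.81%, and FOXA letters in 5.13% and 3.65%. The median GC content was 49.0% in the members' promoters and 52.7% in all promoters, and its part in these shares was not tested. The HNF4A letters were found in none of the 39, beside 0.475% of all promoters. A match describes the letters in a window, and binding was not measured.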

How the data were processed

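The data were ATAC-seq of adult mouse liver, 4 control and 4 Alb-D2KO libraries, deposited as 2 lists of regions on mm10. The authors trimmed adapters, aligned with BWA 0.7.17, removed duplicate, chimeric, supplementary and low-quality alignments (mapping quality below 30), and called regions with Genrich 0.6 at a q of 0.05 on the libraries of a genotype together. Regions that overlapped a region called in the other genotype were then taken out. The deposited signal is the area that the caller summed over a region, in units of its significance curve above a baseline not given in the sources used here. The deposited score is the area per base times 1000 with a ceiling of 1000, and it was only checked against the area. The deposited −log10 q is that of the summit and was used to filter regions, and the column of summit p-values was not used.

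Regions were assigned to genes of GENCODE M21, an mm10 annotation other than the release the study names, by an overlap of at least 1 bp with the body extended by 10 kb. Class was the first of promoter (within 200 bp of a start), exon, intron and intergenic. The share in other protein-coding genes was weighted over 10 length classes to the members' lengths, using every gene of each class. No p-value was computed. Wilson and order-statistic intervals cover counting error over regions only. Alternatives changed the distance, the area and q limits, the nearest-gene rule, the promoter window and the length classes. The overlap code was tested on simulated intervals. Motifs were searched as plain letters, and no motif's letters contain another's. The named genes were every member with its regions. From the wider lists, 3 genes were not found as protein-coding. The members, gene lists and motifs were chosen with earlier results of these data known. Analyses used Python 3.11 with numpy 2.4.6, scipy 1.17.1 and pysam 0.24.0.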

Additional observations from a re-analysis of the deposited data

How the results depend on the processing

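Under all alternatives run, the members with a lost region numbered 22 to 32, those of complement 8 to 14 and those of coagulation 11 to 18, and all of these stayed within 1.5 times the reported counts. The length-weighted share of other protein-coding genes moved from 25.1% to 15.4% for gene bodies only (members 45.8%), 21.1% within 5 kb (62.5%), 31.6% within 20 kb (66.7%), 12.9% for areas of at least 300 (52.1%), 19.6% for a q of at most 0.001 (54.2%) and 19.2% for the nearest gene only (58.3%), and the members' share was the higher one at each. Members with a lost region at their own start numbered 24 with a promoter window of 3000 bp and 6 for areas of at least 300, instead of 14, and promoter regions 39 and 9 instead of 18. The shares of all protein-coding genes at these promoter settings are not given here, so these counts have no background beside them. No member had an Alb-D2KO-only region in the body, within 20 kb or within 50 kb. The median area was 309.8 for gene bodies only and 299.8 with regions within 100 bp merged, and area per base, in another unit, has no such comparison. The calls are pooled, so no library could be left out and no threshold of the caller could be lowered. No paired analysis was possible because the lists hold 1 pooled call per genotype. What depth hides is unknown from the lists.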
